A study of Homo sapiens with 2 samples.

Results

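The miR-28, miR-151 and miR-708 family comprises the mature miRNAs of the hairpins miR-28, miR-151a, miR-151b and miR-708. Its 7 members, taken by name from the 2588 mature miRNA names counted in each library, are hsa-miR-28-5p, hsa-miR-28-3p, hsa-miR-151a-5p, hsa-miR-151a-3p, hsa-miR-151b, hsa-miR-708-5p and hsa-miR-708-3p, where hsa marks a human miRNA. The counts come from small RNA recovered from lysate of parental MDA231 cells, an established triple-negative breast cancer line. The bait library came from amylose resin that carried the in vitro transcribed long non-coding RNA MACC1-AS1 with an MS2 tag, held by MS2 coat protein fused to maltose-binding protein. The no-bait library came from lysate with no RNA substrate, so neither an unrelated RNA nor the MS2 tag alone was tested. There was 1 library per group (1047269 counts with bait and 269716 without), so no difference has a replicate check, no p-value was computed, and every interval covers counting error only.

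A miRNA is cut from a hairpin precursor, and either strand, the 5p or the 3p arm, can be loaded into an Argonaute protein, where bases 2 to 8 (the seed) select target RNAs. The miR-28 and miR-151 hairpins are known as examples of miRNAs that arose from LINE-2 repeats, and miR-708 is grouped with them by sequence. Each hairpin lies within the bounds and between the exons of a protein-coding gene in the GENCODE version 29 annotation of GRCh38. MIR28 (ENSG00000207651.1) lies in an intron of LPP, which encodes a focal adhesion protein, on chromosome 3 from 188688781 to 188688866 (plus strand). MIR708 (ENSG00000211997.1) lies in an intron of TENM4, a teneurin gene, on chromosome 11 from 79402022 to 79402109 (minus strand). MIR151B (ENSG00000265154.1) lies on chromosome 14 from 100109419 to 100109514 on the minus strand, opposite to an intron of EVL, which encodes an actin regulator. Host gene transcripts were not measured.

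Mature sequences of 3 of the 7 members, those matched by name in the RefSeq table, are shown to compare the 3p arms of miR-28 and miR-708 and their seeds. They are entries on GRCh38.p14, written 5′ to 3′, with the seed in capitals. miR-28-3p spans chr3:188688834-188688855 (plus strand), miR-708-5p chr11:79402077-79402099 (minus strand) and miR-708-3p chr11:79402032-79402053 (minus strand).
miR-28-3p: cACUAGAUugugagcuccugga
miR-708-3p: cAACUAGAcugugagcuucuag
miR-708-5p: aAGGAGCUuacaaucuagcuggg
In a global alignment the 3p arms of miR-28 and miR-708 were identical at 17 of 21 aligned bases, with 1 unpaired base in each. Their seeds are nonetheless different strings, so the arms do not form 1 seed group, and no other mature miRNA in the RefSeq table carried either seed. The GC content was 50.0% for miR-28-3p, 45.5% for miR-708-3p and 47.8% for miR-708-5p. miR-28-5p, miR-151a-5p, miR-151a-3p and miR-151b are named without sequence.

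Most family counts were miR-151a-3p, and its share of the library was 6.94-fold lower with bait. miR-28-3p was 3.03-fold lower and miR-151b 2.07-fold lower, while miR-151a-5p and miR-28-5p passed neither rule and the miR-708 arms were nearly undetected. Summed over its 7 members, the family took 4322 counts with bait, or 0.413% of the library (95% Clopper-Pearson interval 0.401% to 0.425%), against 7059 counts without bait, or 2.62% (2.56% to 2.68%). The family sum was thus 6.34-fold lower with bait (6.11 to 6.59). miR-151a-3p made up 86.6% of family counts with bait and 94.8% without. Without miR-151a-3p, the other members summed to 554 RPM (reads per 1000000 miRNA counts) with bait and 1361 RPM without, 2.46-fold lower (2.15 to 2.80).

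**Figure D1:**
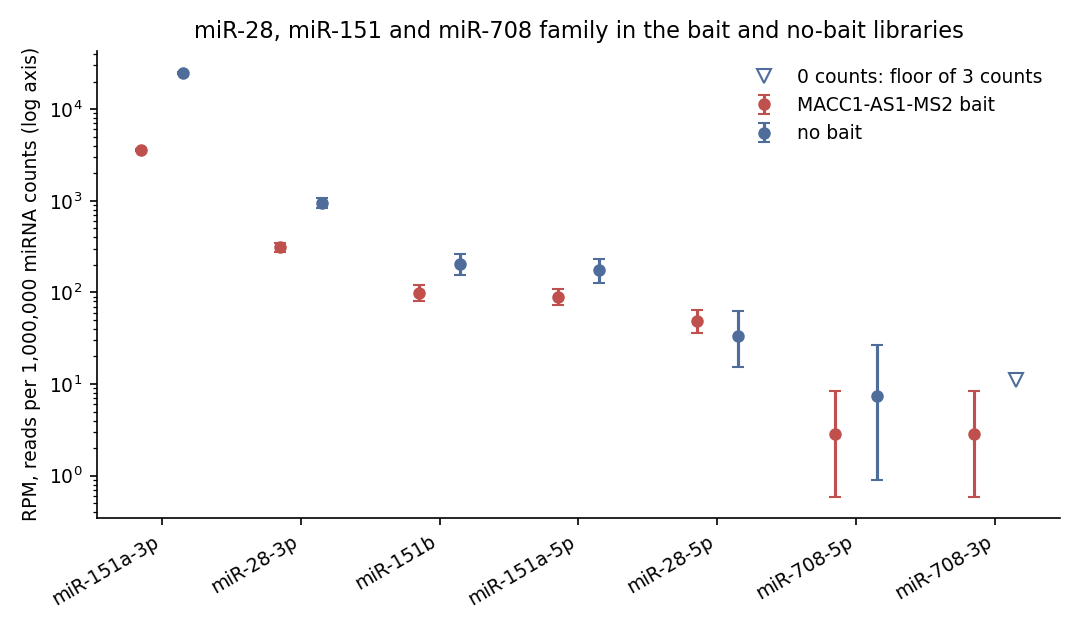
Level of each family member (vertical log axis, RPM) in the bait library (red) and the no-bait library (blue), with exact Poisson 95% intervals for counting error and 1 library per group. miR-151a-3p stood at 3573 RPM with bait and 24811 RPM without; the open triangle marks the floor of 3 counts, 11.1 RPM, for miR-708-3p, which had 0 counts without bait.

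A miRNA was tested when both libraries together held at least 30 counts, which 5 of the 7 members did. It was called lower at a bait over no-bait ratio of at most 0.5 and higher at a ratio of at least 2, where the exact conditional binomial 95% interval excluded 1. Of the 5 tested members 3 were called lower and 0 higher. Among all 231 tested miRNAs the same rules called 26.8% lower and 39.4% higher, or 66.2% in either direction. This balance depended on the filter, since without one 95 were higher and 100 lower of 715. The median log2 ratio was -1.05 over the tested members and 0.55 over all tested miRNAs. The latter median also depends on the filter, which names could pass through the deeper bait library alone. The number of lower members depended on the scaling, because miR-151b and miR-151a-5p lay beside the limit. There were 2 with edgeR TMM factors and with DESeq2 size factors, 3 with scaling by totals, and 4 when the 5 most abundant miRNAs of either library were kept out of the totals. The median log2 ratio of all tested miRNAs shifted by 0.15 with TMM, by 0.42 with DESeq2 and by -0.14 without the most abundant. Of all called miRNAs 59.5% were higher with scaling by totals and 72.2% with DESeq2 size factors. The DESeq2 factors rest only on names with counts in both libraries, and placed the median log2 ratio of all tested miRNAs at 0.97. The ratios compare shares of each library, so they hold no scale for the amount of RNA recovered.

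The hairpin MIR151A (ENSG00000254324.3) lies in an intron of PTK2, the gene of focal adhesion kinase, on chromosome 8 (minus strand). Its main product, hsa-miR-151a-3p, had 3742 counts with bait and 6692 without. It stood at 3573 RPM with bait and 24811 RPM without, which placed it 30th among the names of the bait library and 6th among those of the no-bait library. It alone held 0.357% of all counts with bait and 2.48% without. The deeper library thus gave fewer reads of it even before scaling. The ratio was 0.144 (0.138 to 0.150), and the fold ranged from 5.18-fold lower with DESeq2 size factors to 7.67-fold lower without the most abundant miRNAs. Of 20 other tested miRNAs whose summed counts were within 2-fold of those of miR-151a-3p, 4 were called lower and 5 higher, and 0 had a smaller ratio. The median log2 ratio of these 20 was 0.43, beside -2.80 for miR-151a-3p. This window is set by raw counts of libraries of unequal depth. Names with a large ratio can enter it mainly through the deeper bait library, while names with a small ratio need a high level without bait. The calls, the place of miR-151a-3p and the median within the window are therefore a description. Among the 50 tested miRNAs with a mean level of at least 1000 RPM, its ratio was the 4th smallest, after miR-7641, miR-4488 and miR-423-5p, which are named here after their values were seen. The nearest pattern among miRNAs of like abundance was that of miR-222-3p, with 8028 RPM with bait and 40198 RPM without, a difference of 0.47 between the log2 ratios. The next was let-7i-5p, already 1.35 away.

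**Figure D2:**
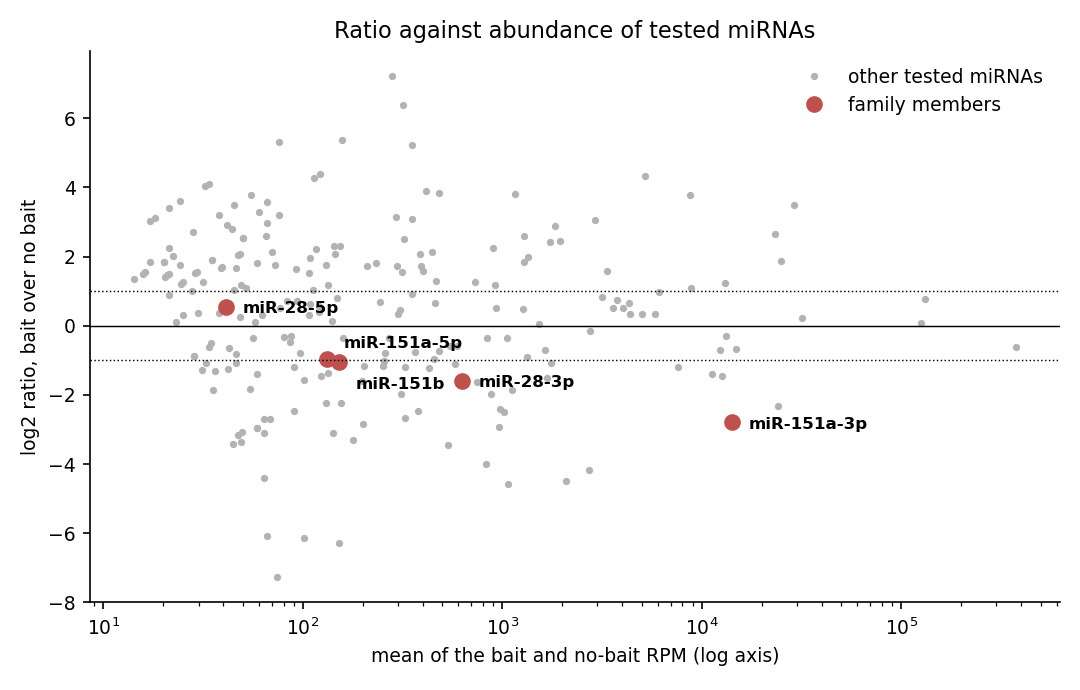
Log2 ratio of bait over no bait (vertical axis) against the mean level of both libraries in RPM (horizontal log axis) for tested miRNAs, with family members in red and the other miRNAs in grey; dotted lines mark 2-fold. miR-151a-3p, at -2.80, lies below the other miRNAs of like abundance, and miR-28-5p, at 0.55, lies at the middle of all tested miRNAs.

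hsa-miR-151a-5p, the rarer arm of that hairpin, had 94 counts (89.8 RPM) with bait and 47 counts (174 RPM) without. Its ratio was 0.515 (0.359 to 0.747), just outside the rule for a lower call although the interval excluded 1. hsa-miR-151b had 103 counts (98.4 RPM) with bait and 55 counts (204 RPM) without, a ratio of 0.482 (0.344 to 0.682), just inside that rule. The mature sequence of miR-151b is known to be nearly that of miR-151a-5p, so reads of either could be counted under the other. In each library their levels had overlapping intervals, and their ratios differed by a factor of 1.07 (0.643 to 1.78), so a difference of up to 1.78-fold is within counting error. Where RefSeq gives several detected names an identical mature sequence, the deposited counts of those names were equal in both libraries, in 3 of 3 such groups. Reads of identical sequences were thus either entered under each name or divided evenly, and the treatment of near-identical ones cannot be read from the counts. Summed, miR-151a-5p and miR-151b came to 188 RPM with bait, against 378 RPM without, 2.01-fold lower (1.57 to 2.57). The interval of this sum, and that of the comparison between both names, treat their reads as separate. If reads were entered under both names, the sum counts them more than once and its interval is too narrow. Nearest to both in ratio, within the window of like abundance, were miR-199a-3p and miR-199b-3p, which share 1 set of counts (176 with bait and 92 without).

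hsa-miR-28-3p, the main arm of the hairpin in LPP, had 326 counts with bait and 254 without. Its level was 311 RPM with bait and 942 RPM without, a ratio of 0.331 (0.280 to 0.391), or 3.03-fold lower (2.56 to 3.58). The call held in each scaling, and with DESeq2 size factors the miRNA was 2.26-fold lower. Of 43 other miRNAs within 2-fold of its summed counts, 13 were called lower and 18 higher, and 10 had a smaller ratio. Its ratio was thus in the lower part of this window, with more neighbours below it than miR-151a-3p had. The window is again set by raw counts, which names can reach through the deeper bait library alone, so this placement is a description. miR-532-5p was nearest in pattern, with 365 RPM with bait and 1131 RPM without. The next was miR-320a, with 484 RPM with bait and 1754 RPM without.

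hsa-miR-28-5p, which is grouped by seed with miR-708-5p, was the exception to the lower shares. It had 51 counts (48.7 RPM) with bait and 9 counts (33.4 RPM) without. The ratio was 1.46 (0.712 to 3.37), so counting error alone leaves any value from 1.41-fold lower to 3.37-fold higher possible. Its log2 ratio of 0.55 was the 116th of 231 from the lowest, which is the median of all tested miRNAs, a set that depends on the filter. Nearest to it in pattern were miR-378c, with 89.8 RPM with bait and 63.0 RPM without, and miR-8485, with 51.6 RPM with bait and 33.4 RPM without.

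The miR-708 arms, of which miR-708-5p has been described as a suppressor of breast cancer metastasis, were at the limit of detection. hsa-miR-708-5p had 3 counts (2.86 RPM, exact Poisson 95% interval 0.591 to 8.37) with bait and 2 counts (7.42 RPM, 0.898 to 26.8) without. hsa-miR-708-3p had 3 counts (2.86 RPM) with bait and 0 without, where the exact Poisson upper bound is 13.7 RPM and the floor of 3 counts is 11.1 RPM. All of these lie at or under the floor of 3 counts, so no fold is given for either arm. The hairpin sum of 6 counts with bait and 2 without gave a ratio of 0.773 (0.138 to 7.83), and no difference was detectable at this depth.

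The order of levels was the same in both libraries, from miR-151a-3p over miR-28-3p, miR-151b, miR-151a-5p and miR-28-5p to the miR-708 arms. Ligation and amplification differ between sequences, so this order describes reads. Among the ratios, that of miR-151a-3p was the smallest, followed by miR-28-3p, miR-151b, miR-151a-5p and miR-28-5p. Of the 10 pairs of tested members, 8 had a ratio of ratios whose interval excluded 1. The other pairs were miR-151b with miR-151a-5p, and miR-151b with miR-28-3p at 1.46 (0.998 to 2.15). miR-28-3p had a 2.30-fold larger ratio than miR-151a-3p (1.93 to 2.73). Both tested 3p arms were lower, by amounts that differed beyond counting error.

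Within both hairpins the 5p arm took a larger part of the reads with bait, a comparison that does not depend on the scaling between libraries. In miR-28 the 5p arm made up 13.5% of hairpin counts with bait (51 of 377, Clopper-Pearson interval 10.2% to 17.4%) and 3.42% without (9 of 263, 1.58% to 6.40%). The ratio of miR-28-5p was 4.42-fold that of miR-28-3p (2.10 to 10.4). In miR-151a the 5p arm made up 2.45% with bait (94 of 3836, 1.98% to 2.99%) and 0.697% without (47 of 6739, 0.513% to 0.926%). Here the 5p ratio was 3.58-fold the 3p ratio (2.49 to 5.20), and 3.45-fold (2.70 to 4.45) with miR-151b added to the 5p arm. The latter interval is too narrow if reads were entered under both names. The intervals of the 5p share did not overlap between the libraries in either hairpin. The 3p arm stayed the main product in both libraries, with 6.39 3p reads per 5p read of miR-28 with bait and 28.2 without, and 39.8 for miR-151a with bait and 142 without.

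**Figure D3:**
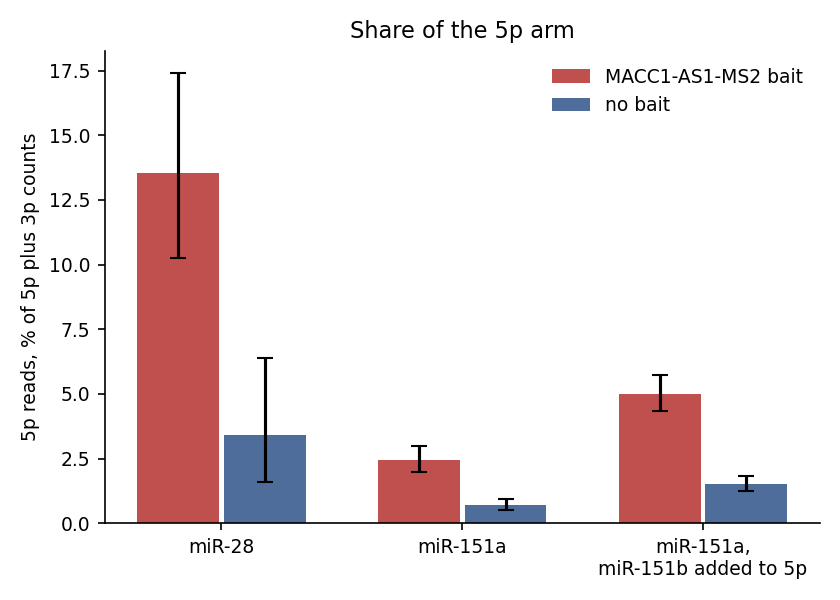
Reads of the 5p arm as a percentage of 5p plus 3p counts (vertical axis from 0) for miR-28, miR-151a, and miR-151a with miR-151b added to the 5p arm, in the bait library (red, left bar) and the no-bait library (blue, right bar), with Clopper-Pearson 95% intervals for counting error. The 5p share was 13.5% with bait and 3.42% without for miR-28, and 2.45% with bait and 0.697% without for miR-151a.

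Such gaps between arms were common in these libraries. Of 34 hairpins with both arms tested, the 5p arm had the larger log2 ratio in 18, and the median gap without regard to sign was 2.06. The gap of 2.14 in miR-28 was the 8th highest and that of 1.84 in miR-151a the 11th, so their size was close to the median. In 13 of the 34 hairpins, these included, the less abundant arm had the larger ratio.

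**Figure D4:**
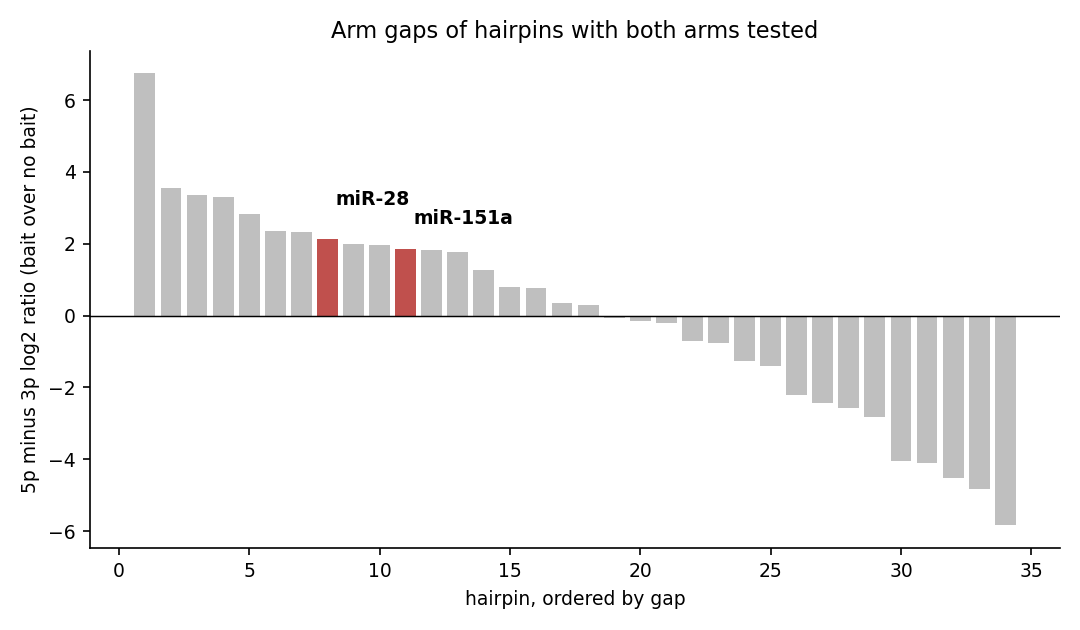
Difference of log2 ratios (bait over no bait) between the 5p and 3p arms (vertical axis) for each of 34 hairpins with both arms tested, ordered from the highest. miR-28 (2.14) and miR-151a (1.84), in red, rank 8th and 11th, inside a range from 6.74 to -5.84.

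Other miRNAs recalled from the literature as lying in transposable elements went in both directions. The list was not checked against a repeat annotation, either for its names or for names left out. Of 15 such hairpins, 15 mature names had at least 30 summed counts, of which 8 were called higher and 2 lower. Several higher names passed that filter through the deeper bait library alone, among them all 3 higher names recalled as LINE-2 derived. These were miR-374a-5p with 226 counts with bait and 3 without, miR-374b-5p with 115 with bait and 3 without, and miR-421 with 34 with bait and 0 without, all named after their values were seen. The counts of calls are therefore a description and no contrast with the family. By counts the leading names were miR-378a-3p, with 734 RPM with bait and 942 RPM without and no call, and miR-340-5p, with 363 RPM with bait and 104 RPM without, called higher as was miR-340-3p. miR-345-5p had 308 RPM with bait and 7.42 RPM (2 counts) without, a ratio of 41.6 (11.4 to 345). miR-361-3p was 2.24-fold lower, while miR-361-5p was called higher, the same arrangement of arms as in miR-28 but with a call on both. The other lower name, miR-493-5p, was chosen after its value was seen, and had 22 counts with bait and 14 without. With DESeq2 size factors 0 of these names were lower.

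The median ratio was lower in bins of higher GC content. Of the 231 tested miRNAs 203 had a RefSeq sequence. In 4 bins of rising GC content the median log2 ratio was 1.27, 1.01, 0.43 and -0.35. miR-28-3p, with 50.0% GC, falls in the third bin, from 47.8% to 54.5% GC, where 14 of 50 miRNAs were lower. Its log2 ratio of -1.60 lay below the median of 0.43 of that bin. The part of base composition in the ratios of the family was not tested.

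The complements of the 3 seeds were sought in the annotated MACC1-AS1 transcript of 639 nucleotides on its sense strand. The motifs were ATCTAGT for miR-28-3p, AGCTCCT for miR-708-5p and TCTAGTT for miR-708-3p, and the first and the last of these overlap in the letters TCTAGT. Each had 0 matches, and so did the shorter complements of bases 2 to 7. Among 2370 RefSeq mature miRNAs, 3.88% had a match to bases 2 to 8 in this transcript and 14.9% to bases 2 to 7. Which isoform served as bait, and the sequence of its tag, were not examined here.

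Reads of 4 miRNAs listed as markers of a basal mesenchymal line made up 47.7% of the bait library and 59.5% of the other. Most were reads of miR-100-5p (310370 in the bait library, 122128 in the no-bait library) and miR-21-5p (174986 and 26251, in the same order). miR-221-3p had 5860 and 1188, and miR-222-3p 8407 and 10842. The summed percentages thus rest mainly on miR-100-5p and miR-21-5p, and do not by themselves identify the line. Markers of other cells were rare, with 0.0181% of counts with bait and 0.0111% without for 6 epithelial miRNAs, of which 2 with bait and 3 without were at 0. Blood cell markers held 0.0432% with bait and 0.0864% without. Most of that was miR-486-5p, with 369 RPM with bait and 793 RPM without. Liver and muscle markers held 0.00229% with bait and 0.00704% without. In the authors' deposited table, 2 of the 7 members, miR-151a-3p and miR-28-3p, had a p-value under 0.05, from a test that is not named and that compares these libraries only.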

How the data were processed

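Small RNA was sequenced from 2 libraries of MDA231 lysate, 1 per group. The authors deposited 1 count per mature miRNA name and library, and an RPM, which matched count over library total to within 0.00994 RPM. The authors' deposited table of the comparison holds a log2 fold change and a p-value. The submitters' processing notes name BWA. Not given in the sources used here are its version, the miRNA reference, the build, trimming and the treatment of multiply matching reads.

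Counts were scaled by library totals. Ratios of bait over no bait have exact conditional binomial 95% intervals, shares Clopper-Pearson intervals, levels exact Poisson intervals, and ratios of ratios exact conditional odds ratio intervals (scipy 1.17.1, Python 3.11.15). A library with 0 counts was set to a floor of 3 counts. The filter was 30 summed counts. Alternatives used edgeR 4.0.16 TMM factors, DESeq2 1.42.0 size factors, totals without the 5 most abundant miRNAs of either library, other count filters, a stricter call, the deposited RPM, and miR-151a-5p summed with miR-151b. The calculations were tested on simulated data. The rule for names took all 7 members, the 2 miRNAs nearest in log2 ratio within 2-fold of summed counts, the most abundant miRNA of each library, and in the recalled transposon list the 4 names with the highest counts and those called in both arms. The members and lists were chosen with earlier results of these data known. Hairpin positions are from GENCODE version 29, and sequences from RefSeq on GRCh38.p14, matched for 3 of 7 members by name.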

Additional observations from a re-analysis of the deposited data

How the results depend on the processing

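No paired analysis was possible because each group held 1 library, and for the same reason no replicate could be left out. Of 80 alternative values, 59 stayed within the counting interval or within 1.5 times the count, and 21 moved. No called value changed direction. For the scalings this was fixed beforehand, since they shifted log2 ratios by at most 0.42 and a call needs a 2-fold difference. Numbers of calls have no direction to change. With TMM factors, with DESeq2 size factors, and with the most abundant miRNAs kept out of the totals, the log2 ratio of miR-151a-3p was -2.64, -2.37 and -2.94, that of the family sum -2.51, -2.24 and -2.81, and that of the miR-151a hairpin sum -2.62, -2.35 and -2.91. DESeq2 size factors gave -1.18 for miR-28-3p and -1.02 for the miR-28 hairpin sum. These shifts follow from the changed factor. The family sum without miR-151a-3p had a log2 ratio of -1.30. Adding miR-151b to miR-151a-5p raised the 5p share of miR-151a to 5.00% with bait and 1.50% without, by construction. These shares are inflated if reads were entered under both names. Over all miRNAs, 59 were higher and 37 lower of the 146 with at least 100 counts, with at least 10 counts 95 were higher and 81 lower, and no filter gave 95 higher and 100 lower of 715, so lower calls outnumbered higher ones only without a filter, among the filters tried. In the transposon list, 100 counts left 5 higher and 1 lower of 9, and DESeq2 size factors or an interval bound beyond 2-fold left 0 lower. The no-bait library, with 3.71 RPM per count, limits the precision of miR-28-5p and miR-708.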
